A study of Mus musculus with 12 samples.

Results

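The glucocorticoid receptor gene Nr3c1 and 9 genes that stress hormone acts on were followed through brain and liver of heat stressed old mice. The 10 members, Nr3c1, Fkbp5, Tsc22d3, Sgk1, Zbtb16, Klf9, Hif3a, Tat, Dusp1 and Cdkn1a, were taken by symbol from a table of raw read counts for 25239 genes, and all 10 had a row. The mice were male wild type C57BL/6J animals aged 24 months. The heat stress group was kept at 40 °C and 60% relative humidity for 3 hours a day over 15 days, and the control group was not exposed. Brain and liver were sampled in 3 mice of either group, and a stranded messenger RNA library was made from a frozen piece of each, 12 libraries in all. Food was freely available in a room with a light and dark cycle, and the hour at which tissue was collected is not given in the sources used here. The region of the brain from which a piece was cut is not given either.

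Glucocorticoids are steroid hormones that the adrenal gland releases under stress and with the time of day, corticosterone being the main one in mice. The receptor waits in the cytoplasm on HSP90 and its cochaperones, enters the nucleus when it binds hormone, and acts as a transcription factor on elements built from a pair of mirrored hexamers. In liver this raises enzymes of gluconeogenesis and amino acid breakdown, and in brain it changes neuronal and glial genes and feeds back on the hypothalamus. Fkbp5 encodes a cochaperone that lowers the receptor's affinity for hormone and is itself induced by the receptor. Tsc22d3 encodes the anti-inflammatory protein GILZ, Sgk1 a serum and glucocorticoid regulated kinase, Zbtb16 the zinc finger repressor PLZF, Klf9 a Krüppel-like transcription factor and Hif3a a hypoxia inducible factor subunit that can restrain its relatives. Tat encodes the liver enzyme tyrosine aminotransferase, Dusp1 a phosphatase that switches off MAP kinases and Cdkn1a the cell cycle inhibitor p21, which p53 also drives.

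Promoter sequence was examined for motifs in RefSeq windows that run from 250 bases before to 50 bases after an annotated start on GRCm38.p6. Of the 10 members, 8 had at least 1 window, 16 windows in all. The 250 upstream bases of 1 start each are printed for Fkbp5, Tsc22d3 and Sgk1, because these are the tested members whose liver libraries did not overlap between the groups. For Tsc22d3 and Sgk1, the start with the most matches was taken. Each runs 5′ to 3′ on the strand of the gene, and capitals mark matches to the hexamer AGAACA or its reverse complement TGTTCT, to the palindrome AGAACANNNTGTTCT, or to the E-box CACGTG that clock factors bind. The Fkbp5 window lies at chr17:28486150-28486399 on the minus strand, that of Tsc22d3 at chrX:140600523-140600772 on the minus strand, and that of Sgk1 at chr10:21993640-21993889 on the plus strand.
Fkbp5: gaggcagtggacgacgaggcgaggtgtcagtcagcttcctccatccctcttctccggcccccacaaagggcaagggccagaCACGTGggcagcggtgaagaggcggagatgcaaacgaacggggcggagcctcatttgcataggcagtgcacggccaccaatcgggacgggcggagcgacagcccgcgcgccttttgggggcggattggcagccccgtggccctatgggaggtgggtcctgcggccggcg
Tsc22d3: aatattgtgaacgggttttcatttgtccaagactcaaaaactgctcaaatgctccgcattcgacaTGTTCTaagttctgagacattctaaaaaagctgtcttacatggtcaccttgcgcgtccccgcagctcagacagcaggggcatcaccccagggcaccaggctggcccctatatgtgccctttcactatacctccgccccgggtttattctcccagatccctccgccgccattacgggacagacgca
Sgk1: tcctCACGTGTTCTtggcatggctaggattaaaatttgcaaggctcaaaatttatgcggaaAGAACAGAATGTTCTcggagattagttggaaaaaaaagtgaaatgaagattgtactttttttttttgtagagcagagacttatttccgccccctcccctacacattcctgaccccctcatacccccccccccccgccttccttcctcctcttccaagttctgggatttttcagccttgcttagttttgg
The Sgk1 window holds the whole palindrome, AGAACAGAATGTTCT, with its first base 189 bases upstream of the start. That palindrome stood in 3 of 32851 windows of all genes, which is 0.00913%. A further TGTTCT begins 242 bases upstream in the same window and shares letters with an E-box that begins at 246, while the matches at 189 and 180 are the arms of the palindrome. The Tsc22d3 window has a single TGTTCT 185 bases upstream, and the hexamer in either direction was found in 19.0% of all windows. Tsc22d3 and Sgk1 have several windows each, while these shares are per window, not per gene. No other Tsc22d3 window held the hexamer. Some of the other Sgk1 windows held the hexamer, but none held the palindrome. The Fkbp5 window has no hexamer and 1 E-box 169 bases upstream, and an E-box was found in 7.15% of all windows. The Dusp1 window holds an E-box and the cyclic AMP response element TGACGTCA, and the latter was found in 1.79% of all windows. Both strands were searched. A match says only that these letters are in the window.

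Totals ranged from 10466198 to 15609040 counts per library. The animals of the heat stress group are also called heated. A normalized count below is a CPM value, the count scaled to a common library size, after TMM scaling within a tissue. Such values are not on a common scale between brain and liver. Some libraries stood apart. In liver, 8 skeletal muscle markers summed to 352 normalized counts in control replicate 1 and to 1994 in heat stress replicate 2, against 1.03 to 6.78 in the other 4 libraries, where up to 4 of the 8 were at 0. Liver control replicate 1 also had the highest sums of neuron and oligodendrocyte markers, 30.1 and 43.9, against 13.1 to 22.0 for either list in the other liver libraries, and it had 30 counts of the immediate early gene Fos against 500 to 988. Hepatocyte markers summed to 77694 to 121878 across the liver libraries, and neuron markers to 5421 to 7387 across the brain libraries. In brain, the striatal markers summed to 371 to 662 in the control group and to 661 to 1427 in the heat stress group. All 8 were higher after heat stress at an unadjusted p under 0.05, where 10.0% of all brain genes were higher and 10.0% lower. All 6 endothelial markers were lower at that level, with sums of 136 to 241 in control and 87.5 to 113 in heat stress brain, and 4 of 8 choroid plexus markers were lower, with sums of 101 to 186 and 36.9 to 82.8. Their part in the values of the receptor gene and its targets was not tested. In pieces of whole tissue, fewer cells of a type and less RNA per cell cannot be told apart.

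**Figure D1:**
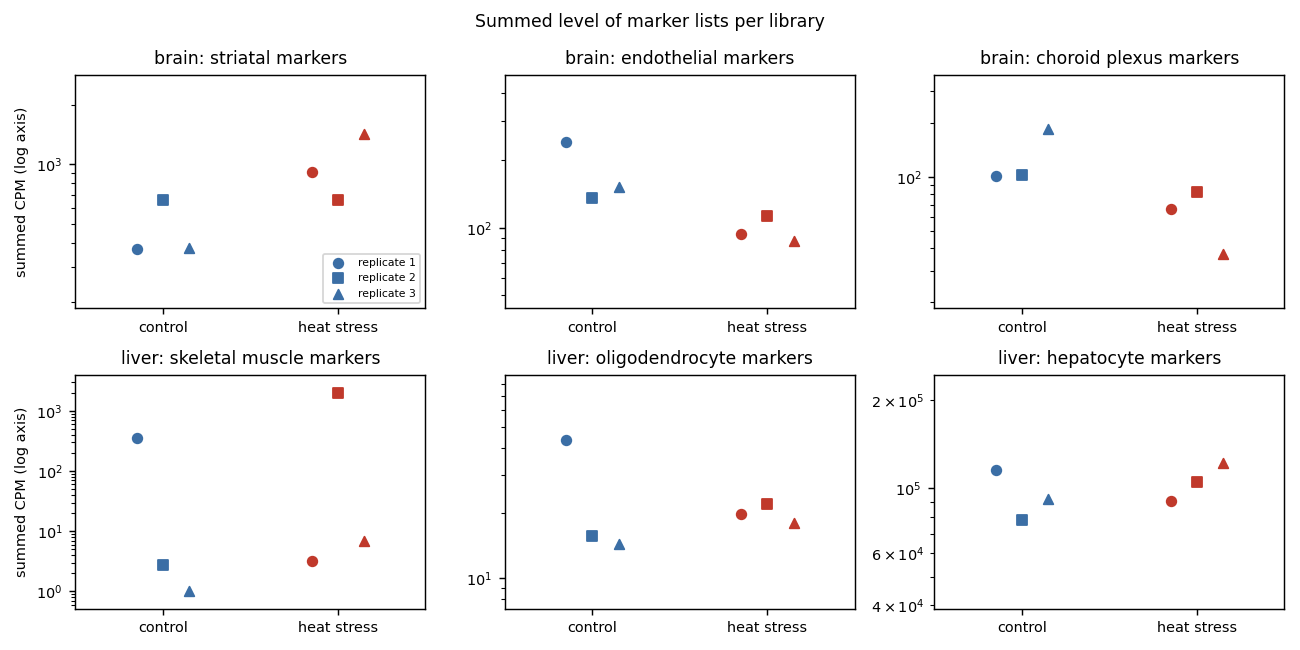
Summed normalized counts (CPM, log axis) of 3 marker lists in brain and 3 in liver, 1 point per library, with the replicate number given by the symbol. Endothelial and choroid plexus sums were lower in every heat stress brain library than in any control, and skeletal muscle markers reached 352 and 1994 in 1 liver library of each group.

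The first question was whether heat stress changed the receptor gene or its targets in liver. No member was past the threshold of an adjusted p under 0.05, and the background was also 0 of 12296 genes (0%) by edgeR's quasi-likelihood test. DESeq2 called 61 of the 11732 genes to which it gave an adjusted p. By edgeR, 718 genes had an unadjusted p under 0.05. Of the 9 members tested, Fkbp5 was higher and Tsc22d3 lower at an unadjusted p under 0.05. The background for that level was 2.97% of genes higher and 2.87% lower. Fkbp5 and Sgk1 were higher and Tsc22d3 lower without overlap between the groups, against backgrounds of 5.38% of genes higher and 5.73% lower without overlap. These 3 separations held with TMM, DESeq2 or upper quartile factors and with totals alone.

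Nr3c1 itself, the receptor, had normalized counts of 67.2, 96.4 and 92.5 in control liver and 94.0, 69.1 and 74.8 in heat stress liver. The groups overlapped, the lowest value being that of control replicate 1, and the log2 fold change was -0.11 ± 0.20 (SE, adjusted p = 0.973). Fkbp5, the cochaperone that the receptor induces, had 11.9, 12.6 and 12.2 normalized counts in control liver and 17.3, 16.9 and 19.9 in heat stress liver. All 3 heat stress libraries lay above all 3 controls. The mean went from 12.2 ± 0.309 to 18 ± 1.61 (SD, n = 3 each), which is 1.47-fold, and the log2 fold change was 0.56 ± 0.17 (SE, unadjusted p = 0.00792, adjusted p = 0.604). With both libraries that held muscle transcripts left out, it was 0.57.

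Tsc22d3, which encodes GILZ, had 86.8, 88.3 and 57.5 normalized counts in control liver and 42.2, 48.5 and 41.1 in heat stress liver. Every heat stress library lay below every control, although control replicate 3 was closer to the heat stress group than to the other controls. The mean went from 77.5 ± 17.4 to 43.9 ± 3.996 (SD, n = 3 each), and the log2 fold change was -0.82 ± 0.20 (SE, unadjusted p = 0.00242, adjusted p = 0.431). DESeq2 gave -0.84 with an adjusted p of 0.0336, which made Tsc22d3 the single member that any alternative called in liver. Over 14 alternatives the adjusted p ranged from 0.0336 to 0.99998 and the log2 fold change from -0.997 to -0.72. Fkbp5 and Tsc22d3, both known to be induced by the receptor, thus stood in opposite directions in the same liver libraries.

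Sgk1, the kinase whose window holds the palindrome, had 18.4, 19.8 and 18.1 normalized counts in control liver and 21.7, 24.5 and 22.7 in heat stress liver. The groups did not overlap, but the difference was small, with a log2 fold change of 0.29 ± 0.16 (SE, unadjusted p = 0.0969, adjusted p = 0.914). Klf9 had 83.0, 127 and 120 normalized counts in control and 147, 115 and 130 in heated liver, which overlapped, and its log2 fold change was 0.25 ± 0.21 (SE, adjusted p = 0.947). Control replicate 1 was the lowest of the 6 Klf9 values, and without it the log2 fold change was 0.068. Zbtb16 varied widely within the controls, with 6.71, 2.85 and 12.02 normalized counts against 6.25, 8.64 and 6.94 after heat stress. Its groups overlapped and its log2 fold change was 0.03 ± 0.41 (SE, adjusted p = 0.996).

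Tat, the classical glucocorticoid induced liver enzyme, had 2108, 1096 and 1293 normalized counts in control liver and 945, 1588 and 882 in heat stress liver. The highest value of each group was in the library that also held muscle transcripts, control replicate 1 and heat stress replicate 2. The groups overlapped, and the log2 fold change was -0.40 ± 0.31 (SE, unadjusted p = 0.229, adjusted p = 0.943). It was -0.081 without control replicate 1, -0.71 without heat stress replicate 2 (unadjusted p = 0.0458), and -0.40 without both. Dusp1, the MAP kinase phosphatase, had 56.2, 87.9 and 52.4 normalized counts in control and 68.8, 90.0 and 43.5 in heated liver, with a log2 fold change of 0.04 ± 0.29 (SE, adjusted p = 0.994). Cdkn1a was low in liver, at 36, 19 and 11 counts in control and 18, 33 and 23 in heated libraries, with a log2 fold change of 0.13 ± 0.39 (SE, adjusted p = 0.984). Hif3a did not pass the filter on low counts in liver, where it had 4, 1 and 1 counts in control and 4, 7 and 4 in heated libraries, too few for a fold.

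**Figure D2:**
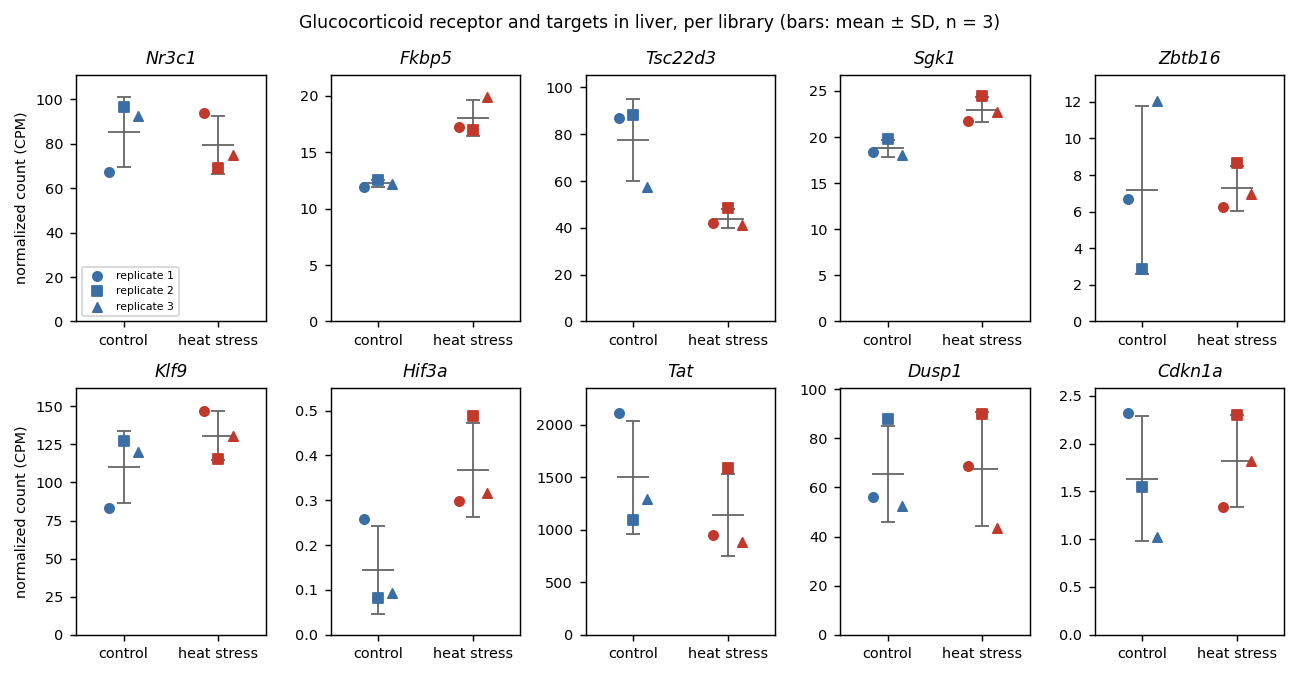
Normalized counts (CPM) of the 10 genes in each liver library, with points for replicates and bars for mean ± SD of 3 libraries. Fkbp5 lies between 11.9 and 12.6 in the controls and between 16.9 and 19.9 after heat stress, Tsc22d3 between 57.5 and 88.3 and between 41.1 and 48.5, and the groups overlap for all but these, Sgk1 and the nearly silent Hif3a; each panel has its own axis that starts at 0.

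In brain, where the same question was asked, none of the 9 members tested was past the threshold, and the background was 0 of 14806 genes (0%). DESeq2 called 618 of the 7769 genes to which it gave an adjusted p. By edgeR, 2969 genes had an unadjusted p under 0.05. Only Zbtb16 of the members tested had an unadjusted p under 0.05, and it was lower after heat stress. At that level 10.0% of all genes were higher and 10.0% lower. The groups of no tested member were without overlap, while 12.9% of all genes were higher and 12% lower without overlap.

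Nr3c1 had normalized counts of 119, 127 and 121 in control brain and 136, 112 and 126 in heat stress brain. The spread around these means was small, 122 ± 4.44 and 124 ± 11.9 (SD, n = 3 each), and the log2 fold change was 0.02 ± 0.11 (SE, adjusted p = 0.920). Fkbp5 had 33.6, 42.0 and 31.2 normalized counts in control and 34.2, 37.5 and 43.2 in heated brain, with overlap and a log2 fold change of 0.11 ± 0.15 (SE, adjusted p = 0.704). Tsc22d3, lower in each heat stress liver, had 78.4, 78.1 and 102 normalized counts in control brain and 106, 106 and 76.3 in heat stress brain. Control replicate 3 lay among the heat stress values and heat stress replicate 3 below every control, so the groups overlapped, and the log2 fold change was 0.16 ± 0.16 (SE, adjusted p = 0.5996). Sgk1 had 71.9, 60.7 and 64.1 normalized counts in control and 65.1, 57.8 and 86.2 in heated brain, with a log2 fold change of 0.09 ± 0.16 (SE, adjusted p = 0.778) that turned to -0.096 without heat stress replicate 3.

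Zbtb16, the PLZF repressor, had 74.1, 37.3 and 63.5 normalized counts in control brain and 36.7, 36.4 and 44.3 in heat stress brain. Control replicates 1 and 3 lay above every heat stress library and control replicate 2 lay among them. The mean went from 58.3 ± 19.0 to 39.1 ± 4.47 (SD, n = 3 each), and the log2 fold change was -0.58 ± 0.22 (SE, unadjusted p = 0.0293, adjusted p = 0.210). It was -0.37 without control replicate 1 and -0.82 without control replicate 2, and the unadjusted p stayed under 0.05 in 8 of 13 alternatives. Control replicate 1 also had the highest endothelial marker sum, 241, and control replicate 2 the highest striatal sum of the controls, 662.

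Klf9 had the fold change nearest to 0 in brain, with 225, 207 and 201 normalized counts in control and 212, 194 and 227 in heated libraries and a log2 fold change of 0.000218 ± 0.12 (SE, adjusted p = 0.999). Dusp1 had 51.1, 41.6 and 59.7 normalized counts in control and 35.8, 49.5 and 43.4 in heated brain, with overlap and a log2 fold change of -0.24 ± 0.16 (SE, adjusted p = 0.419). Cdkn1a had 19.6, 11.8 and 13.6 normalized counts in control and 11.6, 8.87 and 13.3 in heated brain, and control replicate 1 stood above the rest. Its log2 fold change was -0.42 ± 0.23 (SE, unadjusted p = 0.0974, adjusted p = 0.325), and -0.17 without that library. Hif3a passed the filter in brain, with 6.24, 8.12 and 9.88 normalized counts in control and 8.13, 9.14 and 10.4 after heat stress, and a log2 fold change of 0.19 ± 0.21 (SE, adjusted p = 0.625). Tat was at 1, 3 and 8 counts in control and 2, 4 and 0 counts in heat stress brain and was not tested, the count of 0 allowing up to 3 counts by counting error alone.

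**Figure D3:**
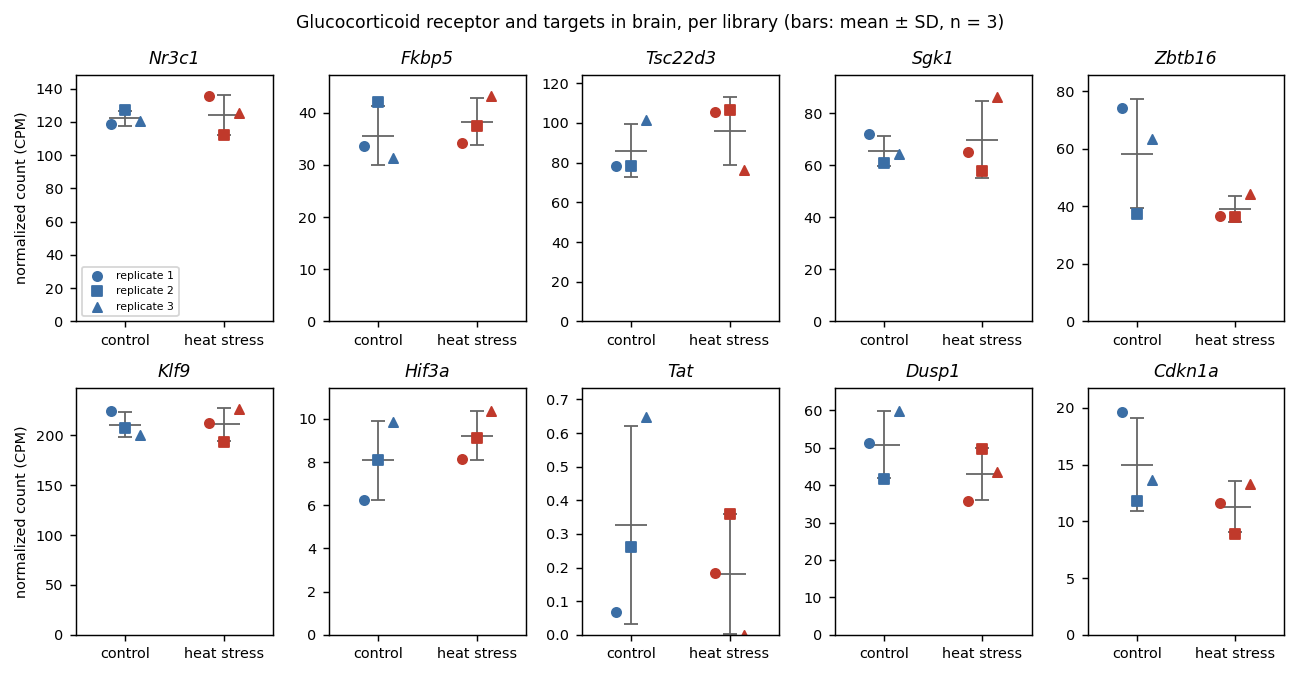
Normalized counts (CPM) of the 10 genes in each brain library, with points for replicates and bars for mean ± SD of 3 libraries. The groups overlap for all 10 genes, and Zbtb16 has 2 of 3 controls, at 63.5 and 74.1, above the heat stress range of 36.4 to 44.3; each panel has its own axis that starts at 0.

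Whether heat stress acted on a member differently in liver and brain was tested as an interaction in a fit of all 12 libraries. None of the 10 members passed an adjusted p under 0.05, and of 15824 genes 1 did (0.00632%), the transferrin receptor Tfrc. DESeq2 called 48 of the 10697 genes to which it gave an adjusted p. Tsc22d3 was the only member at an unadjusted p under 0.05, a level that 9.64% of all genes reached. Its heat effect in liver was lower than that in brain by a log2 difference of -0.99 ± 0.29 (SE, unadjusted p = 0.00487, adjusted p = 0.516). For Fkbp5 the log2 difference, liver minus brain, was 0.44 ± 0.22 (SE, unadjusted p = 0.0655, adjusted p = 0.527). Zbtb16 had a difference of 0.60 ± 0.53 (SE, adjusted p = 0.698) and Nr3c1 of -0.13 ± 0.22 (SE, adjusted p = 0.860), so their heat effects could not be told apart between tissues at this spread.

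**Figure D4:**
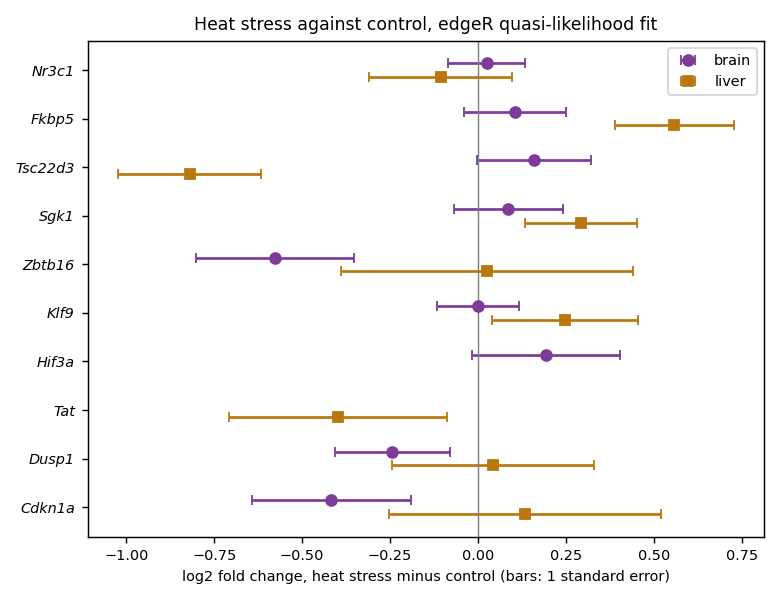
Log2 fold change, heat stress minus control, of each tested member in brain (circles) and liver (squares), with bars of 1 standard error from edgeR. Tsc22d3 in liver at -0.82, Zbtb16 in brain at -0.58 and Fkbp5 in liver at 0.56 lie farthest from 0, and Hif3a in liver and Tat in brain have no point because their counts were too low to test.

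The members were also compared between the tissues. Between the control groups, 9 of 10 members were past an adjusted p under 0.05, where 36.1% of all genes were higher and 44.2% lower in liver and the median log2 difference of all genes was -0.24. For this comparison TMM scaling was done over all 12 libraries together, not within a tissue. Higher in liver were Dusp1, with a log2 difference, liver minus brain, of 1.46 ± 0.27 (SE), Tsc22d3 at 0.96 ± 0.21 and Nr3c1 at 0.58 ± 0.15. On the joint scaling Nr3c1 had control means of 83.7 in brain and 125 in liver, and Tsc22d3 of 58.9 and 115. Scaled within each tissue, both genes had the higher control mean in brain, so their direction rests on the scaling across tissues. Tat was also higher in liver, with 32661, 13446 and 13879 counts in control liver and 1, 3 and 8 in control brain. Lower in liver was Hif3a, with 4, 1 and 1 counts in control liver and 91, 93 and 122 in control brain. No size is given for Tat and Hif3a, since so few counts in the lower tissue leave the fitted size dependent on the prior count. Lower in liver were further Cdkn1a at -2.04 ± 0.34, Zbtb16 at -1.92 ± 0.38, Sgk1 at -0.70 ± 0.16 and Fkbp5 at -0.43 ± 0.16. Klf9 differed by 0.16 ± 0.16 (SE, adjusted p = 0.369). The call of Fkbp5 was lost without brain control replicate 2, liver control replicate 2 or liver control replicate 3.

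Levels of different genes were compared per kilobase of exon, as normalized counts per kb within a tissue. In control brain Klf9 led at 43.8 ± 2.56 per kb, followed by Tsc22d3 at 19.8 ± 3.10 (SD, n = 3). Nr3c1 at 15.9, Dusp1 at 15.4, Sgk1 at 13.4 and Zbtb16 at 11.04 per kb followed, each overlapping its neighbour in the order. Cdkn1a at 4.22 and Fkbp5 at 3.76 overlapped, and Hif3a at 1.20 and Tat at 0.136 per kb came last. In heat stress brain Zbtb16 stood at 7.41 per kb, apart from Dusp1 at 13.0 above it and Fkbp5 at 4.04 below it. In control liver Tat led at 623 ± 223 per kb, and Klf9 at 22.9, Dusp1 at 19.8 and Tsc22d3 at 17.9 overlapped with their neighbours. Nr3c1 at 11.1 and Sgk1 at 3.83 stood apart, Zbtb16 at 1.36 and Fkbp5 at 1.29 overlapped, and Cdkn1a at 0.460 and Hif3a at 0.0215 per kb came last. In heat stress liver Tsc22d3, at 10.1 per kb, overlapped Nr3c1 at 10.3, and Fkbp5 at 1.90 stood above Zbtb16 at 1.38 without overlap. Dusp1 shares 11 exon bases with Ergic1 on the opposite strand, where reads could be split if strand was not used in counting.

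Genes that carry or feed the receptor were read beside it. Of 16 genes of receptor and ligand handling, 15 were tested in liver and none was past the threshold by edgeR. At an unadjusted p under 0.05, 3 were lower and none higher, where 2.87% of all liver genes were lower and 2.97% higher. Hsp90aa1, the inducible HSP90 that holds the receptor, went from 162, 221 and 205 normalized counts to 66.9, 81.9 and 50.2. All heat stress libraries lay below all controls, with a log2 fold change of -1.56 ± 0.23 (SE, unadjusted p = 4.37e-05, adjusted p = 0.107). It was called in 5 of 14 alternatives, which were DESeq2, no filter, all 12 libraries in 1 fit, and the fits without control replicate 1 or without both muscle holding libraries. Its adjusted p over the alternatives ranged from 2.57e-08 to 0.882. The cochaperones Stip1 and Fkbp4 were also lower without overlap, with log2 fold changes of -0.60 ± 0.16 (SE, unadjusted p = 0.00433, adjusted p = 0.465) and -0.62 ± 0.22 (SE, unadjusted p = 0.0173, adjusted p = 0.774). The log2 fold change of the p23 cochaperone Ptges3 was -0.40 (unadjusted p = 0.149). The median of the list was -0.05 and that of all liver genes 0.01. Nr3c2, the mineralocorticoid receptor that also binds corticosterone, had 13.4, 15.1 and 16.1 normalized counts in control and 20.3, 16.2 and 16.6 in heated liver. Its groups did not overlap, by a margin of less than 1 normalized count, and its log2 fold change was 0.25 ± 0.18 (SE, adjusted p = 0.936). Hsd11b1, which regenerates active hormone, had 751, 677 and 746 against 672, 738 and 775 normalized counts, a log2 fold change of 0.01 ± 0.18 (SE, adjusted p = 0.996).

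In brain 13 genes of the same list were tested and none was past the threshold by edgeR. At an unadjusted p under 0.05, 3 were lower and none higher, where 10.0% of all brain genes were lower and 10.0% higher. Without overlap 7 of the 13 were lower and none higher, where 12% of all brain genes were lower. Those at an unadjusted p under 0.05 were Fkbp4, from 129, 117 and 129 to 107, 93.4 and 96.9 normalized counts, the coactivator Ncoa1 and the corepressor Ncor1, with log2 fold changes of -0.34 ± 0.11, -0.36 ± 0.13 and -0.34 ± 0.12 (SE). All 3 were without overlap, as were Hsp90ab1 and Hspa8, a constitutive HSP90 and HSP70, the coactivator Ncoa2 and H6pd, which supplies the cofactor of Hsd11b1. The first 3 of these were named after their values were seen, and H6pd had a log2 fold change of -0.42 (unadjusted p = 0.0584). The list's median was -0.18, and that of all brain genes was -0.00297. Nr3c2 and Hsd11b1 had log2 fold changes of 0.09 ± 0.15 and -0.13 ± 0.15 (SE) in brain, with adjusted p of 0.762 and 0.651. Fkbp4 was thus lower without overlap in both tissues, while its relative Fkbp5 was higher without overlap in liver.

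Of 8 hormone axis genes, 6 were tested in brain and 1 in liver, and none had an unadjusted p under 0.05. In brain Crh, the hypothalamic releasing hormone, had 5.76, 5.15 and 3.56 normalized counts in control and 3.14, 3.40 and 5.57 in heated libraries, with a log2 fold change of -0.26 ± 0.29 (SE, adjusted p = 0.637). Its receptors Crhr1 and Crhr2 had log2 fold changes of -0.44 ± 0.22 and -0.34 ± 0.38 (SE). Pomc, the precursor of corticotropin, ranged from 1.10 to 6.72 normalized counts in control and from 1.70 to 10.9 in heat stress brain. In liver the vasopressin receptor Avpr1a had a log2 fold change of -0.51 ± 0.24 (SE, unadjusted p = 0.0624).

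Other genes that glucocorticoids are known to induce had log2 fold changes mostly above 0 in liver. Of 21, 20 were tested and none was past the threshold by edgeR, while 6 were higher and 2 lower at an unadjusted p under 0.05. At that level 2.97% of all liver genes were higher and 2.87% lower. The list's median log2 fold change was 0.43, and 17 of the 20 were above 0, beside 0.01 and 6369 of 12296 for all liver genes. The list, Mt1 and Mt2 included, was chosen with earlier results of these data known, so these values only describe it. The metallothioneins Mt1 and Mt2, which bind zinc and answer to metals as well as to hormone, went from 7.36, 4.81 and 4.94 to 27.5, 21.9 and 38.7 and from 2.07, 2.36 and 2.05 to 8.86, 4.88 and 12.4 normalized counts. Mt1 had a log2 fold change of 2.35 ± 0.27 (SE, adjusted p = 0.0599), the smallest adjusted p in liver, and Mt2 one of 2.00 ± 0.35 (SE, adjusted p = 0.132). Mt1 was called in 8 of 14 alternatives, DESeq2 and the fit without both muscle holding libraries among them, with adjusted p from 6.62e-11 to 0.644. Mt2 was called in 3, by DESeq2, without those libraries and with all 12 libraries in 1 fit, with adjusted p from 0.000600 to 0.882. Cebpb, a transcription factor of gluconeogenesis and the acute phase, went from 71.6, 63.6 and 48.6 to 90.5, 136 and 135 normalized counts, a log2 fold change of 0.97 ± 0.22 (SE, adjusted p = 0.408). Per1, a clock gene with a glucocorticoid response, went from 20.5, 10.6 and 15.0 to 23.9, 36.8 and 48.2 normalized counts, a log2 fold change of 1.24 ± 0.30 (SE, adjusted p = 0.424). DESeq2 called Cebpb and Per1 as well, Cebpb also being called without the muscle holding libraries, and their lowest adjusted p were 0.0156 and 0.0347, the highest being 0.99998 for each. The lower genes, named after their values were seen, were Ddit4, an mTOR inhibitor, at -1.36 ± 0.42 and Pdk4, which restrains glucose oxidation, at -1.06 ± 0.45 (log2 fold change ± SE), and both overlapped between the groups.

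In brain 20 genes of this list were tested and none was past the threshold by edgeR. At an unadjusted p under 0.05, where 10.0% of all genes were higher and 10.0% lower, 2 were higher and none lower. Both were metallothioneins, Mt2 with a log2 fold change of 0.73 ± 0.18 (SE, adjusted p = 0.170) and Mt1 with 0.43 ± 0.17 (SE, adjusted p = 0.210). Mt2 went from 86.2, 123 and 96.4 to 145, 212 and 149 normalized counts without overlap, while Mt1 overlapped. DESeq2 called Mt2 in brain, and its adjusted p over 13 alternatives ranged from 0.0125 to 0.541. Per1 had 83.7, 63.5 and 113 normalized counts in control and 74.1, 78.7 and 112 in heated brain, a log2 fold change of 0.02 ± 0.22 (SE, adjusted p = 0.962). Mertk, an engulfment receptor, and Cebpb had log2 fold changes of -0.33 and 0.33 in brain, with unadjusted p of 0.0566 and 0.121. The list's median in brain was 0.04.

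All 13 gluconeogenic and amino acid catabolic targets were tested in liver. None was past the threshold by edgeR. Lpin1, a phosphatidate phosphatase and coactivator raised by fasting and glucocorticoids, was the single one at an unadjusted p under 0.05. At that level 2.97% of all liver genes were higher and 2.87% lower. Lpin1 went from 58.0, 33.7 and 54.8 to 78.6, 95.3 and 92.0 normalized counts without overlap, a log2 fold change of 0.86 ± 0.22 (SE, adjusted p = 0.465). Pck1, the first committed enzyme of gluconeogenesis, had 1752, 1359 and 2005 normalized counts in control and 1595, 2762 and 2570 in heated liver, with a log2 fold change of 0.44 ± 0.26 (SE, adjusted p = 0.930). Igfbp1 was at 8.33, 52.8 and 59.4 normalized counts in control and at 64.7, 84.3 and 98.3 in heat stress liver, and the low value was that of control replicate 1. The groups of Igfbp1 did not overlap, with a log2 fold change of 1.04 ± 0.64 (SE, unadjusted p = 0.147). It was 0.54 without control replicate 1, 1.43 without control replicate 3 and 0.52 without both muscle holding libraries. Foxo1 had a log2 fold change of 0.27 ± 0.18 (SE). The list's median was 0.15. In brain 8 of the 13 were tested, none was past the threshold by edgeR, and Irs2, an insulin receptor substrate, was lower without overlap at a log2 fold change of -0.54 ± 0.16 (SE, unadjusted p = 0.00780, adjusted p = 0.170), while Lpin1 was at -0.33, Foxo1 at 0.19 and Got1 at -0.19. DESeq2 called Irs2, whose adjusted p over 13 alternatives ranged from 0.0452 to 0.772.

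Some members answer to other signals, and the lists for these were read beside them. None of 10 p53 targets, read beside Cdkn1a, had an unadjusted p under 0.05 in either tissue, with list medians of 0.10 in brain and 0.01 in liver. The smallest p among them was that of the apoptosis gene Bax in brain, with a log2 fold change of 0.23 (unadjusted p = 0.0859), and of Plk2 in liver, with -0.27 (unadjusted p = 0.201).

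Of 10 immediate early genes, read beside Dusp1, none was past the threshold by edgeR in brain. At an unadjusted p under 0.05, 5 were lower and none higher in brain, where 10.0% of all genes were lower and 10.0% higher. Arc, a synaptic activity gene, went from 281, 181 and 257 to 90.7, 114 and 120 normalized counts, a log2 fold change of -1.15 ± 0.18 (SE, unadjusted p = 0.000118, adjusted p = 0.170). The activity dependent factors Npas4, Egr2 and Egr1 were at -1.45 ± 0.30, -1.21 ± 0.27 and -0.75 ± 0.21 (log2 fold change ± SE). These 4 genes, Arc included, were lower without overlap between the groups, where 12% of all brain genes were lower without overlap. The list's median in brain was -0.50, and Dusp1 was at -0.24. DESeq2 called Arc with an adjusted p of 3.93e-06 and Egr1 with 0.0187, and over 13 alternatives their adjusted p reached 0.541 and 0.782. In liver 8 of them were tested and none had an unadjusted p under 0.05. There Junb had 25.95, 88.3 and 106 normalized counts in control and 114, 173 and 117 in heated libraries, Nr4a1 ranged from 3.68 to 85.5 and from 34.5 to 160, and Btg2 from 9.49 to 215 and from 155 to 191. For each of these 3 the lowest value was that of liver control replicate 1.

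Of 9 hypoxia inducible genes, read beside Hif3a, none was past the threshold by edgeR in brain. At an unadjusted p under 0.05, 2 were higher and 2 lower in brain, where 10.0% of all genes were higher and 10.0% lower. Ankrd37 went from 3.98, 4.54 and 4.29 to 6.19, 9.94 and 7.56 normalized counts, a log2 fold change of 0.89 ± 0.23 (SE, adjusted p = 0.170), and the mitophagy gene Bnip3 had one of 0.40 ± 0.11 (SE). The glucose transporter Slc2a1, which brain endothelium carries at a high level, went from 105, 64.2 and 89.2 to 53.9, 56.4 and 53.6 normalized counts, a log2 fold change of -0.66 ± 0.17 (SE, adjusted p = 0.170), and the vascular peptide Adm was at -0.996 ± 0.43. DESeq2 called Slc2a1 with an adjusted p of 0.0187 and Bnip3 with 0.0319, and over 13 alternatives their adjusted p reached 0.541 and 0.546. The endothelial markers were lower in the same libraries, and their part in the Slc2a1 values was not tested. In liver none of the 9 had an unadjusted p under 0.05, and Pdk1 came nearest with a log2 fold change of 0.35 ± 0.18 (SE, unadjusted p = 0.0787).

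The 12 clock genes were read beside Klf9 and Per1, and none was past the threshold by edgeR in either tissue. At an unadjusted p under 0.05, 3 were higher and 1 lower in brain, where 10.0% of all genes were higher and 10.0% lower. Of 11 tested in liver 3 were higher and 2 lower at that level, where 2.97% of all genes were higher and 2.87% lower. Dbp, a clock output factor, went from 74.0, 67.3 and 68.0 to 97.4, 104 and 108 normalized counts in brain and from 98.4, 45.1 and 72.2 to 115, 158 and 175 in liver. Its log2 fold changes were 0.56 ± 0.10 and 1.05 ± 0.28 (SE), with adjusted p of 0.170 and 0.465. Arntl, the partner of Clock, was lower without overlap in both tissues, at -0.51 ± 0.14 in brain and -1.38 ± 0.41 in liver. Nr1d2 and Cry1 in brain were at 0.48 and 0.28, and Clock and Nr1d1 in liver at -0.71 and 0.61. DESeq2 called Dbp, Nr1d2 and Arntl in brain, with adjusted p of 0.00471, 0.0127 and 0.0499, and over 13 alternatives these reached 0.546, 0.541 and 0.558. In liver Dbp was called without both muscle holding libraries, and its adjusted p over 14 alternatives ranged from 0.0370 to 0.99998. The list medians were -0.01 in brain and 0.29 in liver.

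**Figure D5:**
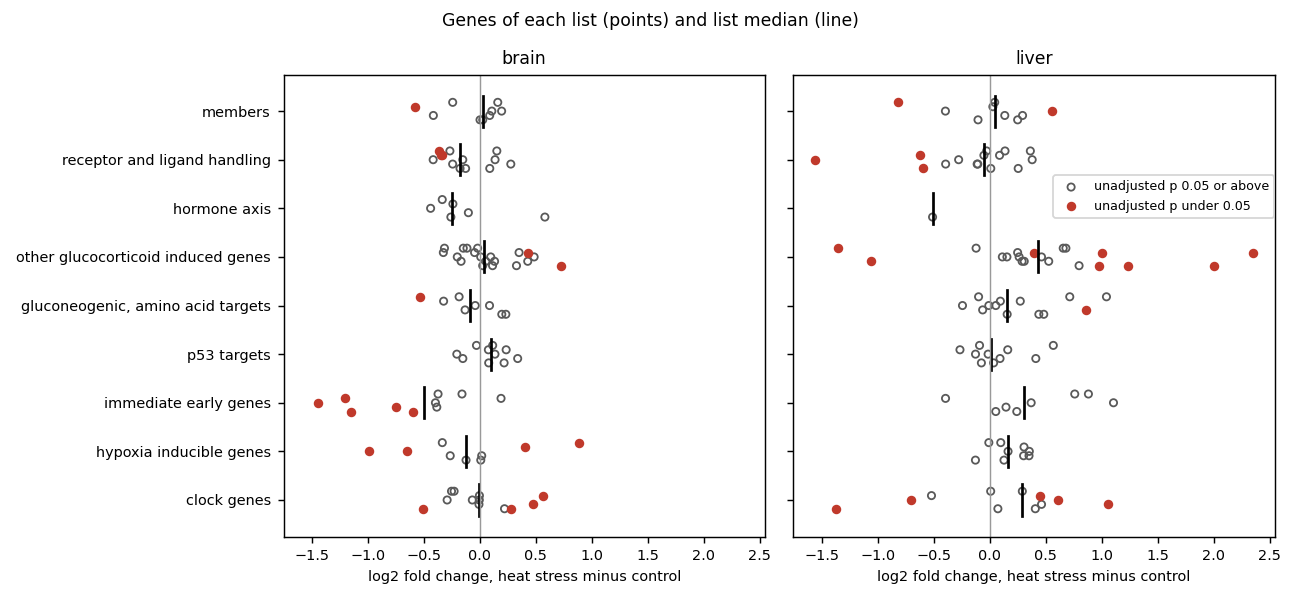
Log2 fold change, heat stress minus control, of every tested gene of the 9 lists in brain and liver, with filled points for an unadjusted p under 0.05 and a line at each list's median. Immediate early genes in brain have the lowest median, -0.50, apart from the single hormone axis gene tested in liver, and the other glucocorticoid induced genes in liver spread from -1.36 to 2.35.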

How the data were processed

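Brain and liver pieces of 3 mice per group were sequenced with a stranded messenger RNA kit, 1 library each. The authors deposited raw read counts per gene symbol, made per the submitters' processing notes with Trimmomatic 0.39, HISAT2 2.2.1 on mm10 and featureCounts of Subread 2.0.1, while another methods paragraph names Tophat2 and HTSeq. Annotation, strand setting and the treatment of multimapping reads are not given in the sources used here. The authors also deposited DESeq2 tables of fold changes and p-values, which were not used. No duplicate libraries were found. In the column names 1 liver control and 2 liver heat stress libraries carry an unexplained suffix.

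The groups were compared in R 4.3.3 with edgeR 4.0.16 (TMM, filterByExpr set to 10 counts and a total of 15, robust quasi-likelihood test, Benjamini-Hochberg over all genes tested), and a gene was called at an adjusted p under 0.05. DESeq2 1.42.0 was an alternative. The procedure was run on simulated counts with planted changes larger than any heat effect fitted for a member. It therefore does not show whether changes of the members' size would be called. A standard error is the log2 fold change divided by the root of F. Exon lengths, from GENCODE M21 of the same build, matched all 174 listed genes. An exact permutation test of 3 against 3 cannot go below 0.1, so none was run. Nothing states that a replicate number marks a shared animal. Same-numbered brain and liver controls had r across genes of 0.39, 0.39 and 0.13. For same-numbered brain and liver heat stress libraries r was 0.057, -0.23 and 0.026. Same-numbered control and heat stress libraries of a tissue ranged from -0.63 to 0.23. The members and lists were chosen with earlier results of these data known. Every member is named, with up to 4 genes of smallest unadjusted p per list and tissue, and Nr3c2, Hsd11b1 and Per1 in both tissues.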

Additional observations from a re-analysis of the deposited data

How the results depend on the processing

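Across 1124 log2 fold changes of named genes under the alternatives (other scaling factors, DESeq2, no filter or a minimum count of 50, a replicate block, all 12 libraries in 1 fit, both muscle holding libraries left out, and each library left out), 1055 kept their direction and their side of the threshold, 30 passed it in the same direction and 39 turned sign. In brain all genes called went from 0 of 14806 to 618 of 7769 with DESeq2, which gave no adjusted p to the other genes. No member was among the 618. The members at an unadjusted p under 0.05 went from 1 to 0 with all 12 libraries in 1 fit and to between 0 and 3 with a library left out. In liver DESeq2 called 61 of 11732 genes and 1 member, Tsc22d3. Genes called in liver were 2 with upper quartile factors, 8 with no filter, 14 with all 12 libraries in 1 fit, 81 without both muscle holding libraries, 25 without control replicate 1 and between 0 and 25 over single libraries left out. With the replicate block, 1 gene was called in liver and the members at an unadjusted p under 0.05 went from 2 to 1, the one lost being Fkbp5. The numbers gave no steady pairing of control with heat stress libraries (r across genes of same-numbered libraries from -0.63 to 0.23). In the control tissue comparison the block left 9 members called and changed no member's call.

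For the difference between tissues, genes called went from 1 to 0 with DESeq2 size factors, upper quartile factors, no filter or the replicate block, to 48 with DESeq2, to 7 without both muscle holding libraries and to between 0 and 4 with a library left out. The members at an unadjusted p under 0.05 went from 1 to 2 with no filter and lay between 1 and 2 with a library left out.

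The following signs turned. In brain Klf9 was at -0.000169 with DESeq2 size factors, -0.00292 with DESeq2, -0.0139 with no filter, -0.00109 with the replicate block and -0.00760 with all 12 libraries in 1 fit. With single brain libraries left out the log2 fold changes ranged from -0.056 to 0.058 for Klf9, -0.18 to 0.26 for Per1, -0.049 to 0.095 for Nr3c1, -0.096 to 0.20 for Sgk1, -0.15 to 1.11 for Pomc, -0.013 to 0.21 for Nr3c2 and -0.28 to 0.0031 for Hsd11b1. In liver Hsd11b1 was at -0.011 with DESeq2 size factors, -0.0137 with DESeq2, -0.00615 with no filter and -0.015 with all 12 libraries in 1 fit, and Zbtb16 was at -0.00140 with DESeq2. Without both muscle holding libraries Zbtb16 was at -0.18, Dusp1 at -0.33 and Nr4a1 at -0.16. With single liver libraries left out the ranges were -0.053 to 0.044 for Hsd11b1, -0.36 to 0.59 for Zbtb16, -0.22 to 0.31 for Dusp1, -0.097 to 0.48 for Cdkn1a, -1.13 to 0.91 for Egr2, -0.033 to 0.92 for Sesn2 and -0.090 to 0.51 for Pfkfb3. The cause of these changes was not tested. Counts of 0 to 8 for Hif3a in liver and Tat in brain were too low for a comparison of heat stress with control.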
